A study of Arabidopsis thaliana with 12 samples.

Results

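In leaves and other green tissue most chloroplast proteins are encoded in the nucleus, made in the cytosol and imported, so the nucleus and the organelle have to adjust to each other. Signals from the chloroplast are known to alter nuclear transcript levels, and mutants with disturbed photosynthesis are a common way to study them. The genes described here are 48 nuclear genes of Arabidopsis thaliana whose array signal stood clearly higher in the pam46 mutant than in wild type (WT). Total RNA of 6 pam46 samples and 6 WT samples, all of ecotype Columbia 0, was measured. By its label the mutant is altered in photosynthesis and defective in a protein that was then unknown. No source used here gives the mutated gene, the tissue, the age or the growth conditions, so the mutation itself could not be checked. None of the 7 names of leaf, root and seed marker genes looked for was among the features of 1 gene.

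The members were chosen by their values. The array held 3439 features, of which GEO's platform annotation pairs 692 with 1 gene, 870 with several genes and 1877 with none. Values were quantile-normalized, raised to a floor at the 5th percentile of positive values (0.0278) and put on the log2 scale. A feature of 1 gene was taken where its lowest pam46 sample exceeded its highest WT sample and the mean difference, pam46 minus WT, was 1 or more, which is 2-fold. These criteria were met by 56 of the 692 features (8.09%), and by 257 of all 3439 (7.47%). Leaving out the 8 of them that the selection excludes by name gave the 48 members. Because these values made the selection, every difference below is a description and carries no test. In RNA of whole samples, fewer cells of a type and less RNA per cell cannot be told apart.

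The direction of the whole array depends on the scaling. Mirrored criteria gave 45 features of 1 gene lower in pam46 (6.5%), against the 56 higher. On the values as deposited the numbers were 25 higher (3.61%) and 135 lower (19.5%), against 26 (3.76%) and 128 (18.5%) once sums were equalized and 67 (9.68%) and 48 (6.94%) once medians were. Over all features the mirrored criteria gave 264 (7.68%). The median log2 difference of all features was -0.36 as deposited and -0.34 with sums equalized, so a member is higher relative to the typical feature of the same sample. Summed intensities ran from 3297 to 3561 in pam46 and from 3290 to 3644 in WT, while median intensities ran from 0.199 to 0.226 in pam46 and from 0.296 to 0.341 in WT. Every pam46 sample had a lower median than every WT sample. Samples of consecutive numbers deviated together: over the members, r between the deviations of numbers 1 and 2, 3 and 4, or 5 and 6 was 0.30 to 0.77, so the 6 samples of a group are not shown to be independent and the standard errors (SE) below can be too small. Same-numbered pam46 and WT samples also deviated together, at r = 0.19 to 0.48 over the members. The SE leave out this pairing, for which they can be too large.

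Most members gave a weak signal in WT, which is a value of the feature and does not rank transcripts by abundance. Ranked among all features of a sample, the median member lay at percentile 65.9 in pam46 and 28.3 in WT. For all features of 1 gene these medians were 46.7 in pam46 and 45.5 in WT. Normalized values are set by rank, so the members' shift in rank was built into the selection. Below the median of the array lay 12 of the 48 members in pam46 and 36 in WT. Deposited intensities, on a linear scale capped at 100, averaged 0.0679 to 4.38 over the pam46 samples of a member and 0.0228 to 2.04 over its WT samples. No member was at the floor in any pam46 sample, and 8 were at the floor in at least 1 WT sample. For those 8 the log2 difference depends on where the floor is set. With the floor at the 20th percentile, 36 of the 48 members still met the criteria, as did 6.36% of the features of 1 gene.

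**Figure D1:**
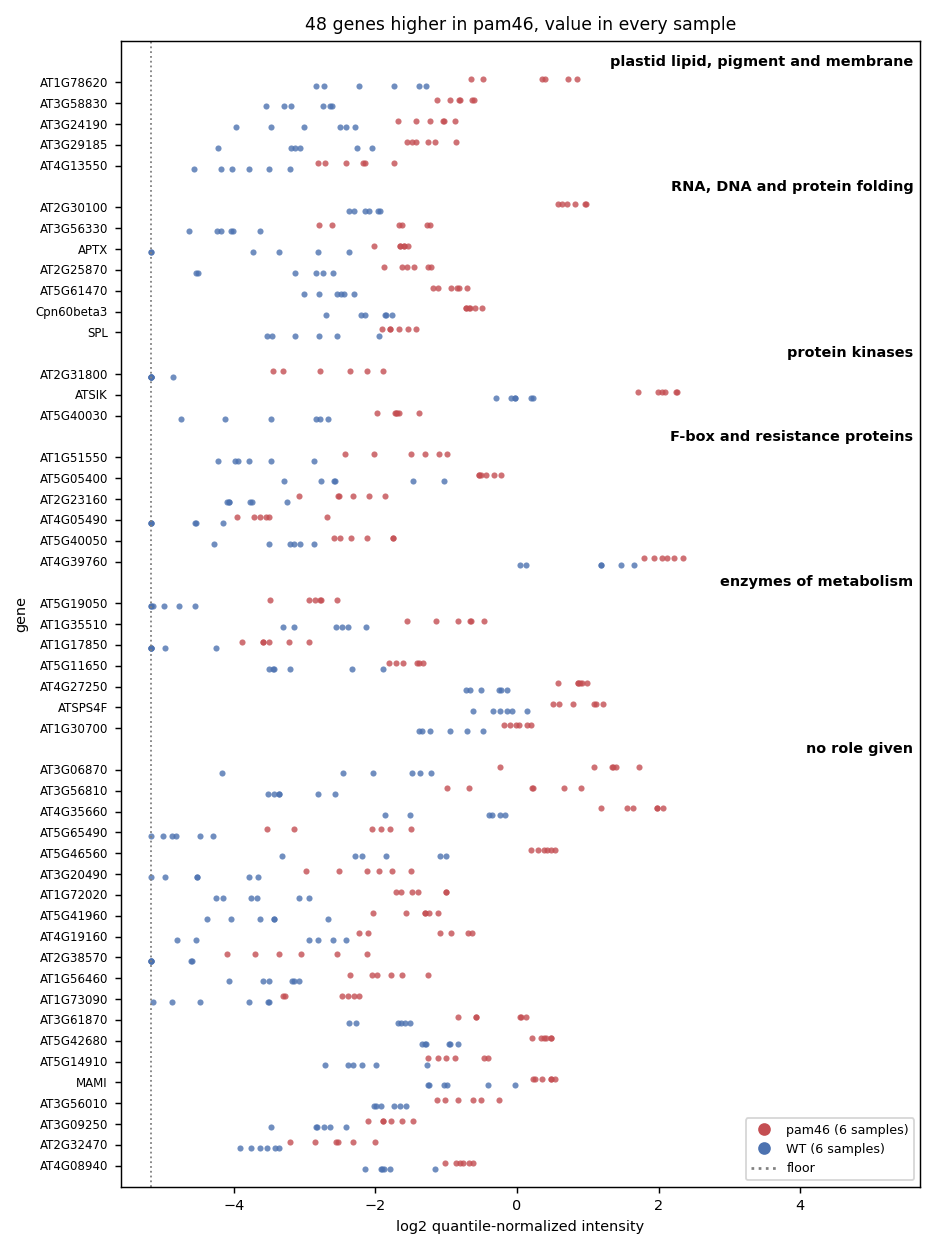
Log2 quantile-normalized intensity (horizontal axis) of each of the 48 members in the 6 pam46 samples (red) and the 6 WT samples (blue), ordered by functional group and by difference. Each point is 1 sample and the dotted line is the floor at -5.17, which 8 members reach in WT and none in pam46.

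The log2 difference of the members ran from 1.01 to 3.23 with a median of 1.71, against a median of 0.03 over the 692 features of 1 gene. It was 2 or more in 18 members, 1.5 to under 2 in 13 and 1 to under 1.5 in 17. The SE of a member's difference ran from 0.10 to 0.53 (n = 6 per group). Between the lowest pam46 and the highest WT sample the gap was 0.01 to 2.51 on the log2 scale, with a median of 0.59. Just inside the size threshold lay AT4G08940 at 1.01, AT1G30700 at 1.02 and AT2G32470 at 1.02. Just outside it lay FZL at 0.92, AT5G40140 at 0.92 and AT4G01310 at 0.89, each with groups that did not overlap. A further 40 features of 1 gene had a difference of 1 or more but overlapping groups, among them AT1G27610 at 1.90 with a gap of -0.03, picked here after its values were seen.

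**Figure D2:**
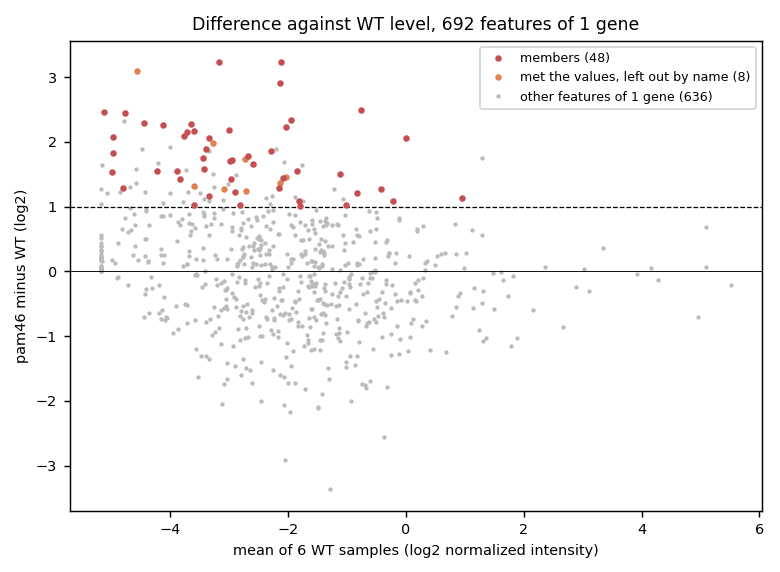
Log2 pam46 minus WT difference (vertical axis) against the mean of the 6 WT samples (horizontal axis, log2 normalized intensity) for the 692 features of 1 gene, each point 1 feature. The 48 members (red) spread from WT levels near the floor to 0.95 and lie above the dashed line at 1.

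Of the 48 members, 6 carry a symbol in the annotation and 42 a locus code alone. Roles given here come from the symbols and synonyms or from textbook knowledge of the locus, and 29 members were given one. By role, 5 members belong to plastid lipids, pigments and membranes, 7 to RNA, DNA and protein folding, 3 are protein kinases, 6 are F-box or resistance proteins and 7 are enzymes of other metabolism. The other 20, one of them MAMI, were placed in no such group. How many genes of each kind the 692 features hold was not counted, so no kind can be called frequent among the members.

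The plastid lipid and membrane genes differed by 1.55 to 2.23 on the log2 scale, with a median of 1.73. On the values as deposited 4 of the 5 also met both criteria. Of all 48 members 21 did so, and of the 692 features of 1 gene 3.61%. All members were chosen by the same contrast, so neither this count nor those of the groups below set any group above another. AT1G78620, the locus of VTE6, a kinase that recycles the phytol chain of chlorophyll into tocopherol, had deposited intensities of 0.562 (lowest), 1.25 (median) and 1.87 (highest) in pam46, against 0.207, 0.291 and 0.488 in WT. Its difference was 2.23 ± 0.37 (SE), and its pam46 samples all lay above its WT samples on the deposited scale too. AT3G58830, the locus of the phosphatase PGPP1 that completes phosphatidylglycerol in plastid membranes, ran from 0.372 over 0.524 to 0.609 in pam46 and from 0.106 over 0.167 to 0.215 in WT. The gap between its groups was 1.49 on the log2 scale, the widest of the 5, and its difference was 2.18 ± 0.18.

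AT3G29185 is the locus of BFA1, a factor for assembly of the chloroplast ATP synthase. Its lowest, median and highest intensities were 0.291, 0.34 and 0.460 in pam46 and 0.0997, 0.143 and 0.274 in WT, a difference of 1.70 ± 0.33. The groups of BFA1 stay apart as deposited, but by a small margin. AT3G24190, of the ABC1 family of atypical kinases that includes proteins of plastid lipid droplets, had 0.262, 0.398 and 0.460 in pam46 and 0.115, 0.179 and 0.238 in WT (difference 1.73 ± 0.30). AT4G13550, the locus of HIL1, a lipase of chloroplast galactolipids, had 0.0987, 0.168 and 0.251 in pam46 and 0.0724, 0.0891 and 0.111 in WT. Its difference of 1.55 ± 0.26 was 0.78 as deposited, where the lowest pam46 sample lay under the highest WT sample.

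Among genes that act on RNA, DNA and protein folding the differences were 1.22 to 2.91, with a median of 1.89 over 7 genes and 1.88 over 6 without AT2G25870, whose features disagree. As deposited 3 of the 7 met both criteria, AT2G30100, AT2G25870 and AT5G61470. AT2G30100 encodes a pentatricopeptide repeat protein, of a family that binds and processes organelle transcripts. It had 1.54, 1.75 and 1.99 in pam46 against 0.221, 0.281 and 0.304 in WT, and its difference of 2.91 ± 0.10 came with the widest gap between groups of all 48 members, 2.51. Normalized values are set by rank, so its rank had to move too, and it lay at percentile 92.0 of the array in pam46 and 45.4 in WT. AT3G56330, of the family of tRNA dimethylguanosine methyltransferases, ran from 0.112 over 0.261 to 0.357 in pam46 and from 0.0346 over 0.0717 to 0.138 in WT (difference 2.26 ± 0.31), and its groups overlapped as deposited. 

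AT2G25870 is the locus of the plastid endoribonuclease YbeY, which matures ribosomal RNA, and its features on the array went opposite ways. The member feature had 0.225, 0.290 and 0.388 in pam46 and 0.0586, 0.156 and 0.218 in WT, a difference of 1.89 ± 0.38. The other feature of the gene had 0.209, 0.232 and 0.341 in pam46 and 0.390, 0.840 and 1.16 in WT, a difference of -1.20 ± 0.28. With opposite differences from its features, no direction can be given for this gene. The sequence that each feature carries was not used here.

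Cpn60beta3, a beta subunit of the chaperonin that folds proteins in the plastid, had 0.532, 0.572 and 0.655 in pam46 and 0.221, 0.298 and 0.358 in WT. The pam46 samples lay close together, and the difference was 1.45 ± 0.15. The related Cpn60beta4 was no member: its difference of 1.23 ± 0.54 came with overlapping groups, at 0.0134, 0.113 and 0.155 in pam46 and 0, 0.0705 and 0.152 in WT. APTX, an aprataxin-like gene whose animal counterpart mends failed DNA ligations, had 0.202, 0.265 and 0.290 in pam46 and 0.0147, 0.0783 and 0.224 in WT. Its WT samples were widely spread, 2 of them at the floor, and its difference was 2.09 ± 0.49. AT5G61470, a C2H2 zinc finger gene, was at 1.66 ± 0.13, and at 0.87 after subtraction of the features 1, 6 and 12 numbers away. SPL, the SPOROCYTELESS regulator of spore mother cell formation, was at 1.22 ± 0.26 with a gap of only 0.05. As deposited the groups of both APTX and SPL overlapped.

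All 3 protein kinase genes had a difference above 1.7, but only ATSIK also met the criteria as deposited, where the groups of the other 2 overlapped. ATSIK had intensities of 3.45, 4.36 and 4.96 in pam46 and 0.827, 1.08 and 1.13 in WT. Its difference was 2.06 ± 0.11 after quantile normalization, 2.06 as deposited and 2.62 once medians were equalized. AT2G31800, of the integrin-linked kinase family, had 0.0602, 0.127 and 0.223 in pam46 and 0, 0.0205 and 0.0715 in WT. With 5 of 6 WT samples at the floor its difference of 2.47 ± 0.26 was 0.66 with the floor at the 20th percentile. AT5G40030, of the AGC kinase family, had 0.211, 0.246 and 0.327 in pam46 and 0.0289, 0.140 and 0.225 in WT (difference 1.75 ± 0.35), and its difference was 0.08 after subtraction of neighbouring features.

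The F-box and resistance genes had differences of 1.13 to 2.16 with a median of 1.36, and only AT5G05400 and AT4G39760 also met the criteria as deposited. F-box proteins choose targets for ubiquitination and form a large family in plants. Whether a feature also binds transcripts of relatives was not tested, for these genes or for members of other families. AT1G51550, an F-box protein with kelch repeats, had 0.147, 0.326 and 0.421 in pam46 and 0.0433, 0.115 and 0.162 in WT (difference 2.16 ± 0.30). AT4G39760, of the same build, had the highest WT signal of the members, with 3.54, 4.45 and 4.98 in pam46 and 1.16, 2.12 and 2.97 in WT. Its groups did not overlap on either scale, and its difference was 1.13 ± 0.29. That difference fell under the size threshold after subtraction of neighbouring features. It was 0.97 with the features 1, 6 and 12 numbers away subtracted and 0.51 with the 20 nearest. AT5G05400, a nucleotide-binding leucine-rich repeat gene of the disease resistance type, had 0.623, 0.676 and 0.771 in pam46 and a wider 0.0996, 0.225 and 0.516 in WT (difference 1.86 ± 0.35). The F-box genes AT2G23160, AT4G05490 and AT5G40050 were at 1.43 ± 0.22, 1.28 ± 0.25 and 1.17 ± 0.25, and as deposited their groups overlapped. AT4G05490 had 3 of 6 WT samples at the floor, and its difference was 0.10 with the floor at the 20th percentile and 1.76 with it at the 1st.

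The enzymes of other metabolism ran from 1.02 to 2.07, with a median of 1.43. ATSPS4F encodes a sucrose phosphate synthase, the enzyme that commits carbon from photosynthesis to sucrose. It had 1.46, 1.94 and 2.37 in pam46 and 0.676, 0.904 and 1.23 in WT, and its difference was 1.09 ± 0.16 after normalization and 1.03 as deposited. AT4G27250, of a family of NAD(P)-binding reductases, had 1.53, 1.88 and 1.96 in pam46 and 0.698, 0.791 and 0.939 in WT (difference 1.27 ± 0.11). These 2 genes were the members of the group that met the criteria on both scales. AT1G35510, of the O-fucosyltransferase family, was at 1.78 ± 0.25, and AT1G30700, a berberine bridge enzyme-like oxidase, at 1.02 ± 0.16.

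The alpha/beta hydrolase genes AT5G19050 and AT5G11650 were at 2.07 ± 0.17 and 1.43 ± 0.29. AT5G19050 had 0.0542, 0.116 and 0.126 in pam46 and 0.00781, 0.0455 and 0.0747 in WT. Like AT1G17850, a rhodanese family gene at 1.53 ± 0.20 with 4 of 6 WT samples at the floor, it was under the size threshold with the floor at the 20th percentile, at 0.42 for AT5G19050 and 0.06 for AT1G17850.

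Members without a role given here include the largest differences. AT3G06870 had 0.822, 2.63 and 3.34 in pam46 and 0.0448, 0.333 and 0.504 in WT, a difference of 3.23 ± 0.53. Sample 2 was the lowest in both groups, at -0.24 in pam46 and -4.17 in WT on the log2 scale. AT3G56810 reached the same 3.23 with a smaller error, ± 0.34, from 0.464, 1.10 and 1.89 in pam46 and 0.0884, 0.135 and 0.235 in WT. Its median rank was percentile 88.0 in pam46 and 22.2 in WT. AT4G35660, the third of the group, had 2.41, 3.66 and 4.39 in pam46 and 0.328, 0.793 and 0.932 in WT (difference 2.49 ± 0.33).

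AT5G46560 had 1.15, 1.3 and 1.51 in pam46 and 0.125, 0.291 and 0.579 in WT, so tight values in pam46 stood against spread ones in WT (difference 2.34 ± 0.36). AT1G72020 was at 2.27 ± 0.25 and AT5G41960 at 2.17 ± 0.28, and both met the criteria as deposited. AT5G65490 (2.45 ± 0.36), AT3G20490 (2.30 ± 0.33) and AT4G19160 (2.07 ± 0.51) did not, their groups overlapping on that scale. AT5G65490 and AT3G20490 each had 1 WT sample at the floor, and with the floor at the 20th percentile they were at 0.99 and 1.14. AT5G42680 had one of the smallest errors, 1.5 ± 0.10, with 1.14, 1.36 and 1.40 in pam46 and 0.430, 0.509 and 0.632 in WT. MAMI, a membrane-associated gene named for its induction by mannitol, had 1.12, 1.35 and 1.46 in pam46 and 0.456, 0.550 and 1.02 in WT (difference 1.22 ± 0.21). The remaining members of this group, AT2G38570, AT1G56460, AT1G73090, AT3G61870, AT5G14910, AT3G56010, AT3G09250, AT2G32470 and AT4G08940, lay between 1.01 and 1.83. AT2G38570, at 1.83, had 4 of 6 WT samples at the floor. With the floor at the 20th percentile AT2G38570 was at 0.35, AT1G73090 at 0.62, AT2G32470 at 0.70 and AT3G09250 at 0.996, under the size threshold. The others of this list still met the criteria there.

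Every member had a higher mean deposited intensity in pam46 than in WT, by a ratio of 1.27 to 7.94 with a median of 2.31. On the values as deposited every pam46 sample exceeded every WT sample in 24 of the 48 members, where 37 of the 692 features of 1 gene (5.35%) did so. In 21 members the log2 difference was also 1 or more. The other 27 met the criteria only relative to the other features of each sample. For those 21 the selection does not rest on the quantile normalization applied here. It still rests on any scaling that the deposited values already carry, which is not known.

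**Figure D3:**
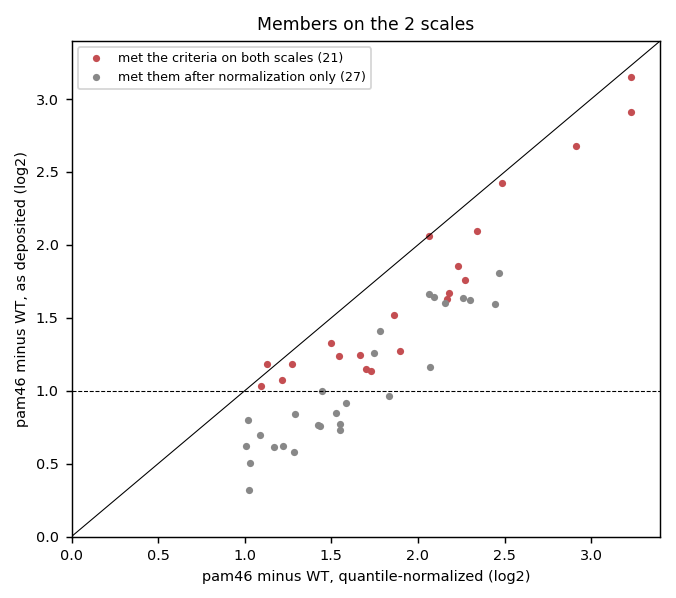
Log2 pam46 minus WT difference of the 48 members on the values as deposited (vertical axis) and after quantile normalization (horizontal axis). The 21 members that met both criteria on both scales are red, nearly all members lie under the diagonal line of equal values, and none is under 0.

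Features near each other in feature number shared a little of their difference. Over all features the correlation was 0.13 between features 1 number apart, 0.19 at 6 and 0.18 at 12, against -0.01 to 0.10 at the other distances up to 12. These points share samples and perhaps places on the array, whose layout was not used here. The median difference of the features 1, 6 and 12 numbers away was 0.5 or more for 15 of the 48 members (31.3%) and for 106 of the 692 features of 1 gene (15.3%). With it subtracted, 35 members still met the criteria, where 9.1% of the features of 1 gene did. For AT5G40050 the neighbours' median was 1.66, above its own difference of 1.17, and for AT2G23160 it was 1.60 against 1.43. AT5G40030, 2 genes away from AT5G40050 on chromosome 5 and 7 feature numbers from it, had neighbours at 1.66 and was left with 0.08. Cpn60beta3 had neighbours at 1.31 and was left with 0.14, while BFA1, AT3G29185, at 0.63, was left with 1.06 but with overlapping groups. AT3G20490 and AT4G19160 had neighbours at 1.25 and 1.38. For VTE6 (AT1G78620), PGPP1 (AT3G58830), AT2G30100, ATSIK and ATSPS4F the difference after subtraction was 2.59, 2.17, 2.36, 1.91 and 1.78. The part of such neighbours in a member's value was not tested.

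**Figure D4:**
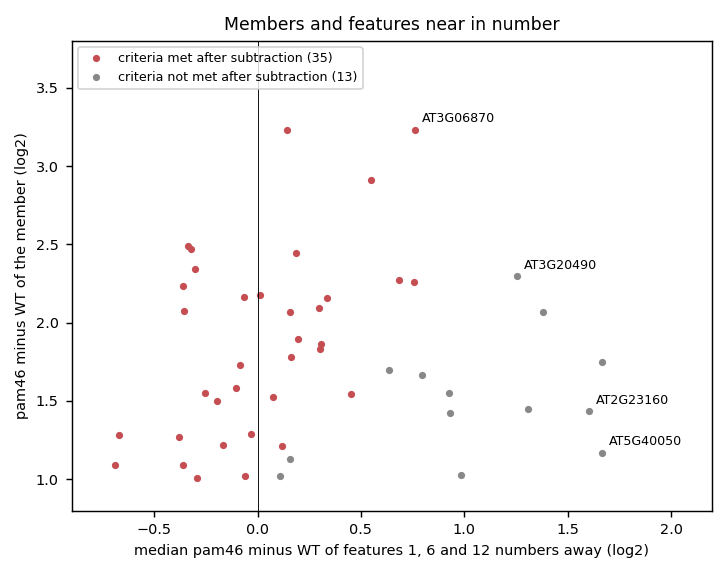
Log2 pam46 minus WT difference of each of the 48 members (vertical axis) against the median difference of the features 1, 6 and 12 numbers away (horizontal axis). The 35 members that met the criteria after subtraction are red, and 11 of the 13 grey points lie right of 0.5.

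Within a group the members did not vary as one. Over the 1128 pairs of members the median correlation of their deviations from the group means was 0.02. Over pairs of features of 1 gene it was 0.01, leaving out features whose deviations did not vary. Of the pairs of members 4.34% exceeded 0.7, against 3.59% of those pairs of features. The closest pair was AT4G35660 and AT4G39760, at r = 0.92 over 12 samples that share the deviations of consecutive numbers. AT1G35510 and AT4G19160 also reached 0.92, and SPL and APTX 0.87. The average of numbers 1 and 2 lay above the group mean in 16 of 48 members in pam46 and in 17 of 48 in WT, and that of numbers 3 and 4 in 30 in pam46 and 29 in WT. The median SD of a member on the log2 scale was 0.32 in pam46 and 0.45 in WT, and 34 of the 48 varied more in WT, where by selection they were dimmer. Over the features of 1 gene the median SD was 0.38 in pam46 and 0.38 in WT. How many of those features varied more in WT was not counted.

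By chromosome the members were 8, 6, 11, 9 and 14 on chromosomes 1 to 5, which is 4.62%, 4.84%, 8.46%, 7.50% and 9.79% of the features of 1 gene there. Few were near each other: AT5G40030 and AT5G40050 were 2 protein-coding genes apart, AT4G27250 and SPL 8, and no other members lay within 10. The genes had a median length of 2311 bp, against 2146 bp over the 690 features of 1 gene matched to RefSeq assembly TAIR10.1, the source of loci and gene order. Both are lengths of the whole gene, introns included.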

How the data were processed

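Total RNA of 6 pam46 and 6 WT samples was measured on an array. Each deposited value is an intensity of a feature, linear, from 0 to 100. No source used here says how the authors corrected, scaled or filtered the intensities. The criteria prescribed for the members were applied in Python 3.11.15 with pandas 2.3.3 and numpy 2.4.6. The code was also run on simulated data with independent noise of equal size in every feature and sample. Those data lack the shared deviations of the samples here, so that run does not show how the criteria behave on these data. Samples were grouped by title. Differences are means of log2 values, pam46 minus WT, and SE combines the SDs of both groups (n = 6 each). Labels do not say that samples came from separate plants, so errors may be technical. Arrays have no read depth, so precision depends in part on how many independent arrays there are.

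The members and groupings were chosen with earlier results of these data known. The plan sorted genes by words in a gene description, which the tables used here do not hold, so roles and their groups were assigned by hand after the members were known. Promoter and protein features were planned and are not analysed here. Genes were named by a rule: the 12 largest differences, the 2 largest of each group, the 3 nearest the size threshold on either side, the 3 brightest in WT and the 3 with the smallest SE, plus members of known role. Of 692 features of 1 gene, 690 matched RefSeq.

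Sample numbers are shared by both groups. Deviations from the group means of same-numbered samples correlated at 0.24 to 0.57 over all features, above the limit of 0.1 in each of the 6 pairs. The pairing comes from the numbers in the labels and this check. Alternatives were other scalings, floors and thresholds, the replicate block, averaging of consecutive numbers, a filter on dim features, subtraction of neighbouring features and leaving out each sample.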

Additional observations from a re-analysis of the deposited data

Results flagged for a closer look

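Single samples far from the rest of their group were sought with Dixon's ratio of gap to range at its 95% critical value. Of the 96 groups of 6 samples of the 48 members, 7 held one, and chance alone gives about 1 in 20. Values are log2 normalized intensities. AT3G06870 had pam46 sample 2 at -0.24 and the other pam46 samples at 1.09 to 1.72. AT4G27250 had pam46 sample 6 at 0.58, with the others at 0.87 to 0.99. APTX had pam46 sample 1 at -2.02, with the others at -1.66 to -1.54. AT4G05490 had pam46 sample 6 at -2.69, above the others at -3.96 to -3.50. AT4G08940 had WT sample 3 at -1.16, above the others at -2.15 to -1.79. For AT2G31800 WT sample 5 stood at -4.86, above the floor (-5.17) that held the other 5. AT1G17850 had WT sample 2 at -4.25 and 4 of the others at the floor. Where the other samples stand at the floor, any sample above it stands out.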

How the results depend on the processing

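The 48 members became 21 as deposited, 22 with sums equalized, 31 at a difference of 1.5 or more and 22 when features with a mean under the array's median were left out. Before any were left out by name, 3.61%, 3.76%, 4.91% and 7.99% of the features of 1 gene met these settings, against 8.09%. The 7.99% is of the 313 features that the filter left, where the 8.09% is of 692. With the replicate block, which asks only that pam46 exceed WT in every pair of the same sample number, there were 79, and all 48 were among them, as its looser form implies. Of the features of 1 gene, 12.7% met this looser form. Numbers from 36 to 70 came from the other alternatives on all samples, and 45 to 51 from leaving out 1 sample. For the numbers from 36 to 70 the share over the features of 1 gene was 6.36% to 11.3%. For the numbers with a sample left out this share was not counted. In all settings other than the other size thresholds and the filter on dim features, 18 members kept both criteria, among them AT2G30100, VTE6 (AT1G78620), PGPP1 (AT3G58830), ATSIK and ATSPS4F. How many of the 692 features of 1 gene did so was not counted, so the 18 have no share to be set against. After subtracting the features 1, 6 and 12 numbers away, an alternative added after seeing the data, AT5G40050 was at -0.49 and AT2G23160 at -0.17, and the cause was not tested. With the floor at the 20th percentile 36 members remained, and 6 of the 12 lost had a WT sample at the floor used.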
